A study of Homo sapiens with 12 samples.

Results

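The genes described here are the cytosolic ribosomal protein genes, taken as the entries with a symbol of RPL or RPS and a number, with an optional A, X, L or L1 behind it, plus RPLP0, RPLP1, RPLP2 and RPSA, and without entries described as pseudogenes. This rule gave 84 of the 52889 gene entries, of which 52 belong to the large and 32 to the small ribosomal subunit, and 7 are paralogues whose symbol ends in L or L1. The rule used no measured value. All 84 symbols were found in RefSeq (GRCh38.p14), on 21 chromosomes and with 12 genes on chromosome 19.

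ATAC-Seq was used to ask how the fusion proteins of the t(4;11) translocation change open chromatin in HEK293T cells, a human embryonic kidney line. In this assay the Tn5 transposase cuts accessible DNA in nuclei, and the reads counted on a gene rise with its open chromatin. Each of 4 groups had 3 biological replicates, which makes 12 samples. The empty vector pSBTet-GP was in the Mock cells. At day 0 (d0) the cells made MLL-AF4 constitutively from another vector backbone (pSBbi). Cells of day 3 (d3) expressed MLL-AF4 and, in addition, AF4-MLL that had been induced with 1 µg/ml doxycycline for 48 h. At day 28 (d28) AF4-MLL had been switched off for 25 days, and the labels give these cells the genotype of d0. All cells were stably transfected populations, whereas the AF4-MLL plasmid was transfected transiently. By the study's methods, blasticidin was given along with doxycycline over these 48 h. At d3 the induction of AF4-MLL, doxycycline, blasticidin and the transfection cannot be told apart, nor can MLL-AF4 and the vector backbone at d0. The harvest day of Mock cells is not given in the sources used here. The viral genes that mark HEK293T cells were not among the entries, so the label of the line was not checked by markers. KMT2A, the gene of MLL, had a normalized count of 29.5 ± 2.19 (SD, n = 3) in Mock cells, 39.9 ± 7.69 at d0, 61.0 ± 5.98 at d3 and 75.2 ± 12.6 at d28.

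Total counts per sample were 353430 to 501324 in Mock cells, 648466 to 715327 at d0, 930067 to 1186209 at d3 and 1058754 to 3539937 at d28. Mitochondrially encoded genes took between 26.4% and 68.5% of these counts. Over the members, 11 of 12 pairs of replicates of a group did not differ beyond counting noise (chi-square test of counts, p of 0.05 or more). The exception was d3 replicates 2 and 3 (chi-square per degree of freedom of 1.43). Over the entries outside the mitochondrial sequences every pair differed (chi-square per degree of freedom of 1.05 to 1.28, against 0.774 to 1.43 over the members). The members are far fewer entries, so the test detects less there and does not show that they vary less. The chi-square test cannot tell separate cultures from separate libraries of the same culture. All 12 were counted as separate samples because they are given as biological replicates. Normalized counts were obtained with edgeR's TMM factors, which put all 12 samples on their average effective library size. A gene is called higher or lower where edgeR's quasi-likelihood test gave a Benjamini-Hochberg adjusted p below 0.05 over the 27579 entries tested. Each log2 fold change is given with its standard error (SE).

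Ribosomal proteins surround the ribosomal RNA in the small subunit, which reads the messenger RNA, and in the large subunit, which joins amino acids and releases the new chain through a tunnel. Their genes are active in every growing cell, are scattered over the genome and must deliver their products in equal numbers. Most have short promoters without a TATA box. Their transcripts typically start with an unbroken run of pyrimidines, the terminal oligopyrimidine (TOP) tract, through which the mTOR pathway sets their translation together. Many of the genes hold small nucleolar RNAs in their introns and have left large numbers of processed pseudogenes in the genome. Loss of 1 copy of several of them, RPS19 most often, causes Diamond-Blackfan anaemia.

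The promoters show what the members share in sequence beyond their names. A promoter window of 250 bases before and 50 bases after an annotated start was at hand for 67 of the 84 genes (RefSeq, GRCh38.p14), and a gene with several windows was counted where any of them held the sequence. A start with C or T at the first 5 bases was found in 47 of the 67 members (70.1%), against 6.50% of all 27305 genes with a window. The core of the ETS family site, CCGGAAG, was found on either strand in 24 members (35.8%, against 12.2% of all genes). TCTCGCG, a part of the palindromic element of TATA-less promoters, was found on either strand in 17 members (25.4%, against 4.17%). The YY1 site AAGATGGC was found in 7 members (10.4%, against 3.52%), the TATA box TATAAA in 7 (10.4%, against 14.0%) and the Sp1 site GGGCGG in 39 (58.2%, against 48.3%), each on both strands. Matches can overlap, as CCGGAAG and AAGATGGC can at their AAG, and a match is not a bound site.

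The following 80-base stretches, from 60 bases before the start to 20 bases from it on, are those of the 12 genes called in at least 1 comparison that have a window. The other called gene, RPS15A, has none in the table. The stretches are written on the strand of the gene. Capitals mark the pyrimidine run at the start, where it has at least 5 bases, and the ETS core, the YY1 site, the palindrome part and the TATA box as spelled above, on either strand. Where a gene has several windows, one with such a run is shown if there is one.
RPL13 (chr16:89560622-89560701, plus strand): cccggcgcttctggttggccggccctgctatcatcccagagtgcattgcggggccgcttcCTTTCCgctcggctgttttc
RPL4 (chr15:66504836-66504915, minus strand): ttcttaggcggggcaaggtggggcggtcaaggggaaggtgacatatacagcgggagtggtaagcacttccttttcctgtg
RPL10 (chrX:154398317-154398396, plus strand): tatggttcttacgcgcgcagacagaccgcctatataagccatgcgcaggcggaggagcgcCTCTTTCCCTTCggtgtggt
RPL15 (chr3:23916485-23916564, plus strand): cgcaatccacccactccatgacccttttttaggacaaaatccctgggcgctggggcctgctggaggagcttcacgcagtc
RPS24 (chr10:78033803-78033882, plus strand): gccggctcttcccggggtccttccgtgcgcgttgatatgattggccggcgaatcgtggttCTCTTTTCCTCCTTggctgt
RPS14 (chr5:150449720-150449799, minus strand): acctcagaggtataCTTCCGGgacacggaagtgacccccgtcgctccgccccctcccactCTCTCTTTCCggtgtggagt
RPS19 (chr19:41860195-41860274, plus strand): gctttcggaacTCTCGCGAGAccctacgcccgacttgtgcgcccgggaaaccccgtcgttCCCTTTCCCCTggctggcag
RPL36 (chr19:5690235-5690314, plus strand): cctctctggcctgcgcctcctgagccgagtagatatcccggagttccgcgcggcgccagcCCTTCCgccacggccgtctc
RPL39 (chrX:119791611-119791690, minus strand): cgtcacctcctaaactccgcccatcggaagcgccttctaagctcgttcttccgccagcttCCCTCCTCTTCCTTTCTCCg
RPL12 (chr9:127451387-127451466, minus strand): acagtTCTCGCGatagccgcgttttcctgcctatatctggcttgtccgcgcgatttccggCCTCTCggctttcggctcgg
RPS27L (chr15:63157458-63157537, minus strand): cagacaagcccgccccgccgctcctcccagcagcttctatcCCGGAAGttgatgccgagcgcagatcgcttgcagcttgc
RPL22L1 (chr3:170870176-170870255, minus strand): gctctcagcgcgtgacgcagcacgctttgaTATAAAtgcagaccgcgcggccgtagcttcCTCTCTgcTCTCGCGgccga
The pyrimidine run was 19 bases long in RPL39, 14 in RPS24 and 12 in RPL10, whereas RPL4, RPL15 and RPS27L had none of 5 bases or more at the annotated start shown. The paralogue RPL22L1 has a TATA box in this stretch, and the paralogue RPS27L an ETS core, as has RPS14. The palindrome part stands in the stretches of RPS19, RPL12 and RPL22L1.

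The members differed widely in how many reads they drew, and RPL41, RPL36 and RPL10 led the large subunit per kilobase of gene. The mean normalized count of a tested member over the 12 samples lay between 6.44 in RPL17 and 133 in RPL27A, and the median was 28.9, against 10.6 over all entries tested. Per kilobase of gene span, RPL41 (29.3) and RPL36 (28.9) were followed by RPL10 (24.0) and RPL13 (19.7). In the small subunit RPS28 (15.7), RPS25 (12.8) and RPS27 (11.8) were highest. The lowest tested members per kilobase were RPS10 (1.02), RPL3L (0.933) and RPL39L (0.696). RPL3L and RPL39L encode forms used in muscle and in testis, respectively. RPL10L, a testis form of RPL10, was the member that fell below the low-count filter: it had at most 4 counts in a sample and 0 in 7 of 12 samples. The order depends on the division by span, since 5 of the 10 highest members were also among the 10 highest without it. Counts did not grow with span in step either: protein-coding genes of up to 5 kb had a median of 38 counts over the 12 samples, those of 5 to 10 kb of 136, and those of 100 to 1000 kb of 220. A value per kilobase is thus a scale for ordering short genes and not a density of cuts.

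By TMM-normalized counts, the ribosomal protein genes as a group were highest at d3, whereas as a share of all counts d3 (0.420%) and Mock cells (0.426%) overlapped. Their summed normalized count was 2770 ± 54.1 (SD, n = 3) in Mock cells, 2813 ± 50.5 at d0, 3500 ± 121 at d3 and 2862 ± 57.8 at d28. The 3 samples of d3 had 3482, 3629 and 3389, and the 9 other samples lay between 2715 and 2908. The sum at d3 was 1.26-fold that of Mock cells and 1.24-fold that of d0, and the sum at d28 was 0.818 of that at d3. Both subunits shared this, with 1.25-fold and 1.30-fold of Mock cells at d3 for the large and the small subunit. Of the 84 members, 61 had their highest group mean at d3, 11 at d28, 9 in Mock cells and 3 at d0. The same tally is not given here for all entries. Where the mean normalized count reached 20, 58.4% of entries had a log2 fold change above 0 at d3 against Mock cells. Against d0 it was 57.5%. The members at that level had 85.0% and 86.7%, and other protein-coding genes of up to 10 kb had 65.6% and 68.9%. No test was run on the summed counts, and in bulk samples fewer cells with an open gene and less opening per cell cannot be told apart.

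**Figure D1:**
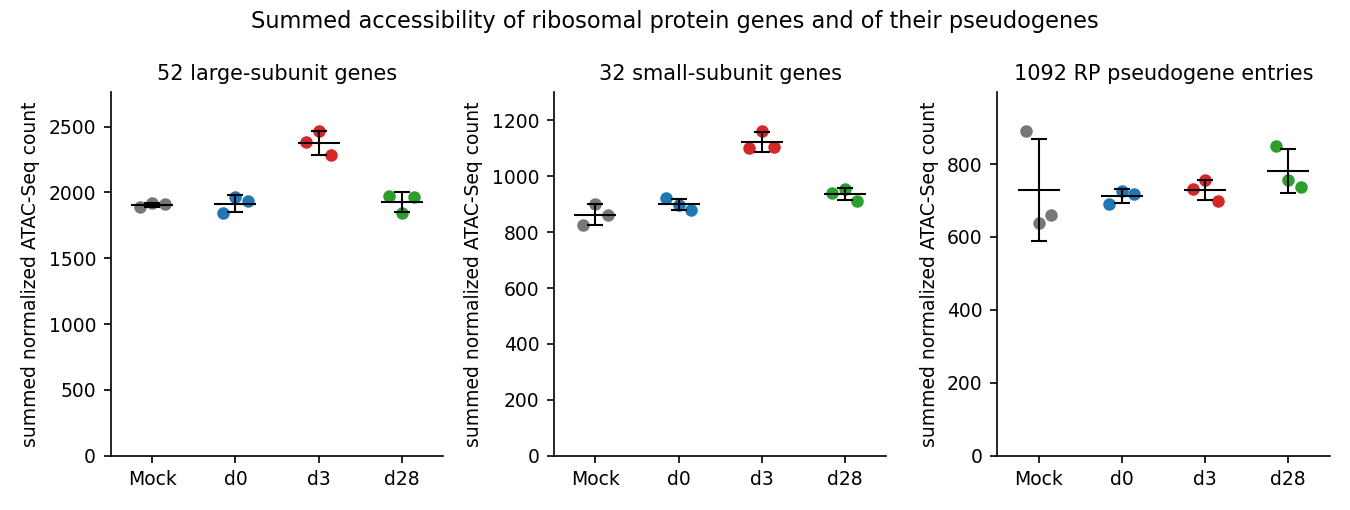
Summed normalized ATAC-Seq count of the large-subunit genes, the small-subunit genes and the ribosomal protein pseudogenes in each sample (points), with the group mean and SD (bars, n = 3). On this TMM-normalized scale the 3 samples of d3 lie above the 9 others in both subunits, whereas the pseudogene sum of d3 (728) lies between those of d0 (711) and d28 (781).

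The places of both d3 and d28 depended on the denominator of a share. Of the counts outside mitochondrially encoded genes, the members took 0.583% ± 0.0109 (SD, n = 3) in Mock cells, 0.567% ± 0.00888 at d0, 0.694% ± 0.0198 at d3 and 0.506% ± 0.0170 at d28. The share was highest in d3 replicate 2, at 0.717% (95% Wilson interval 0.696% to 0.739%), and lowest in d28 replicate 1, at 0.494% (0.481% to 0.507%). Such intervals cover counting error only. Of all counts, the members took 0.426% in Mock cells, 0.318% at d0, 0.420% at d3 and 0.175% at d28. On this scale d3 was 0.986 of Mock cells and the groups overlapped, while outside mitochondrially encoded genes it was 1.19-fold and they did not. The mitochondrial share itself was 26.8% in Mock cells, 44.0% at d0, 39.4% at d3 and 65.5% at d28, and its part in the differences between groups was not tested.

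Constitutive MLL-AF4 alone was accompanied by little change of these genes. In d0 against Mock cells, 1 of 83 tested members passed the test, beside 0.609% of all entries tested, and the median log2 fold change of the members was -0.027, beside -0.0017 over all entries. There were 39 members above and 44 below 0. RPL36, a protein of the large subunit near the tunnel exit, was the gene called. Its normalized count was 52.4, 59.3 and 60.9 in Mock cells and 27.4, 35.5 and 32.4 at d0. The groups did not overlap, and RPL36 fell by 0.86 on the log2 scale (SE 0.22, adjusted p = 0.0264 with edgeR). The call was lost without any 1 of the Mock samples, d0 replicate 1 or d0 replicate 3 (adjusted p between 0.0535 and 0.209 with edgeR). RPLP2, a protein of the acidic stalk that recruits translation factors, had the next smallest p among lower members, with 29.4 ± 8.68 (SD, n = 3) at d0 against 44.0 ± 6.72 (adjusted p = 0.365 with edgeR). RPL10 and RPL4 had the smallest p among higher members, with log2 fold changes of 0.44 (SE 0.16) and 0.42 (SE 0.19) that did not pass the test (adjusted p = 0.279 and 0.457 with edgeR).

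With AF4-MLL induced, ribosomal protein genes stood higher than in Mock cells, and 7 were called: RPL4, RPS14, RPS27L, RPL13, RPS24, RPL10 and RPL15. The share was 7 of 83 members, all in the same direction, beside 1.27% of all entries called in either direction and 0.834% called higher. All 7 were among the 60 members whose mean normalized count reached 20, and 2.22% of all entries at that level were called higher. The median log2 fold change was 0.34 over the members and 0.028 over all entries, and with library sizes as the only scaling both turned below 0, to -0.031 and -0.34. There were 68 members above and 15 below 0, and 30 members had all 3 samples of d3 above all 3 Mock samples, as had 9.84% of all entries tested. The size of the change was modest, between 1.45-fold and 1.78-fold in the 7 genes called.

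RPL13, which lies on the outer face of the large subunit, had 112, 91.5 and 88.6 normalized counts in Mock cells, 105, 113 and 105 at d0, 175, 167 and 135 at d3, with 139, 110 and 115 at d28. All d3 samples were above all Mock and all d0 samples, and the lowest of them lay below the highest of d28. RPL13 rose by 0.70 (SE 0.14) on the log2 scale against Mock cells (adjusted p = 0.000199 with edgeR). RPL4, whose long loop lines the tunnel, had 55.4, 54.1 and 51.7 in Mock cells, 69.7, 79.4 and 67.3 at d0, 102, 93.3 and 93.5 at d3, with 77.6, 75.9 and 80.1 at d28. Here the d3 samples were above the samples of every other group, and the d0 and d28 samples above those of Mock cells. RPL4 rose by 0.84 (SE 0.17) on the log2 scale (adjusted p = 0.000248 with edgeR). RPL10, which joins the large subunit late and is needed for the subunits to meet, had 74.8, 79.9 and 92.3 in Mock cells, 106, 108 and 119 at d0, 122, 138 and 121 at d3, with 91.8, 89.3 and 88.8 at d28. The d3 samples of RPL10 were again above all others, with a log2 fold change of 0.64 (SE 0.15, adjusted p = 0.00323 with edgeR).

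RPS24, a small-subunit protein mutated in some patients with Diamond-Blackfan anaemia, had 40.4, 46.4 and 66.4 in Mock cells and 77.8, 90.7 and 68.9 at d3. Its highest Mock sample came close to its lowest d3 sample. The log2 fold change was 0.66 (SE 0.18, adjusted p = 0.0221 with edgeR). RPS14, the ribosomal protein gene of the common deletion on the long arm of chromosome 5 in myelodysplastic syndrome, had 29.9, 32.2 and 16.6 in Mock cells and 49.3, 49.6 and 43.6 at d3. The groups did not overlap, and the log2 fold change was 0.80 (SE 0.23, adjusted p = 0.0357 with edgeR). RPL15, a large-subunit protein, had 76.3, 59.3 and 81.2 in Mock cells and 109, 105 and 95.1 at d3. Its groups did not overlap either, with a log2 fold change of 0.54 (SE 0.16, adjusted p = 0.0492 with edgeR). RPS27L rose by 0.72 (SE 0.21, adjusted p = 0.0485 with edgeR) and is described with the paralogues.

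The calls of RPL13 and RPL4 held with each of the 12 samples left out in turn, with adjusted p up to 0.0128 and 0.00549 (edgeR). RPL10 lost its call without Mock replicate 1 (adjusted p = 0.0549 with edgeR). RPS24 did so without Mock replicates 1 or 2 or d3 replicate 2 (0.163 to 0.230), RPS14 without Mock replicates 1 or 3 or d3 replicates 1 or 2 (0.0744 to 0.285), RPL15 without Mock replicates 1 or 2, d0 replicate 1 or d3 replicates 1 or 2 (0.0508 to 0.378), and RPS27L without any 1 of the Mock or d3 samples (0.0507 to 0.227). The number called was 2 without Mock replicate 1, 3 without d3 replicate 2, and 4 without Mock replicate 2 or d3 replicate 1. DESeq2 called 3 members, RPL13, RPL4 and RPL10. The count was 3 with RLE factors and 3 when only the 6 samples of both groups were fitted, and with library sizes only all 7 calls were lost (0 called).

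Few members stood lower at d3 than in Mock cells, and none passed the test. RPSA, which forms part of the small subunit and is also known as a precursor of the laminin receptor, had 21.0, 42.5 and 25.8 in Mock cells and 22.3, 31.7 and 13.5 at d3. The groups overlapped, and the log2 fold change of -0.46 (SE 0.26, adjusted p = 0.524 with edgeR) was -0.025 without Mock replicate 2. RPS26, at the exit of the messenger RNA, had 27.0 ± 4.28 (SD, n = 3) and 21.2 ± 2.27, with a log2 fold change of -0.36 (SE 0.27, adjusted p = 0.659 with edgeR).

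Set against d0, from which the cells of d3 were made, the group at d3 stood higher as well, and RPS27L, RPS19, RPL39, RPL13, RPL36 and RPS15A were called. This comparison shares the d3 samples with the one against Mock cells, so the values are not independent. Of 83 members 6 were called, all higher, beside 0.91% of all entries in either direction and 0.598% higher. Where the mean normalized count reached 20, 1.56% of all entries were called higher, and 5 of the 6 genes called lay in that class, RPL39 being the exception. The median log2 fold change was 0.35 over the members and 0.024 over all entries, and 73 members were above and 10 below 0. In 34 members all d3 samples were above all d0 samples, as in 10% of all entries tested.

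RPS27L and RPL13 were called here too, with log2 fold changes of 1.10 (SE 0.21, adjusted p = 0.000409 with edgeR) and 0.56 (SE 0.13, adjusted p = 0.00674 with edgeR). RPS19, the gene most often mutated in Diamond-Blackfan anaemia, had 29.9, 36.9 and 38.8 normalized counts at d0, 59.3, 63.3 and 69.7 at d3, 43.3, 49.9 and 52.4 at d28, and 41.9, 50.3 and 33.2 in Mock cells. Its d3 samples were above those of every other group. RPS19 rose by 0.87 (SE 0.19, adjusted p = 0.00296 with edgeR) from d0 to d3, while against Mock cells the log2 fold change was 0.58 (SE 0.19, adjusted p = 0.106 with edgeR). RPL39, the smallest protein of the tunnel wall, had 13.7, 11.3 and 9.06 at d0, 28.5, 32.5 and 24.6 at d3, 18.5, 18.3 and 29.1 at d28, and 13.5, 23.2 and 14.8 in Mock cells. The d3 samples were above those of d0 and Mock cells, with a log2 fold change of 1.31 (SE 0.30, adjusted p = 0.00606 with edgeR) from d0.

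RPL36 and RPS15A also rose from d0 to d3. RPL36 had 59.3, 53.9 and 46.0 at d3, so that the d3 and Mock samples overlapped, and its log2 fold change from d0 was 0.75 (SE 0.20, adjusted p = 0.0354 with edgeR). RPS15A, a small-subunit protein, had 32.9, 33.5 and 35.1 in Mock cells, 27.4, 19.9 and 22.01 at d0, 40.8, 49.6 and 33.3 at d3, with 30.6, 31.6 and 30.6 at d28. Its d3 samples were above all d0 samples and overlapped with Mock cells. The log2 fold change of RPS15A was 0.82 from d0 to d3 (SE 0.23, adjusted p = 0.0480 with edgeR) and -0.54 from Mock cells to d0 (SE 0.27, adjusted p = 0.517 with edgeR).

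In this comparison the call of RPS27L held with each sample left out in turn (adjusted p up to 0.0116 with edgeR). RPS19 lost its call without d0 replicate 1 (0.0824), RPL39 without d0 replicate 3 (0.0937) and RPL13 without d0 replicates 1 or 3 or d3 replicate 1 (0.0605 to 0.0863). RPL36 lost it without any 1 d0 sample or d3 replicates 1 or 2 (0.0715 to 0.229), and RPS15A without any 1 d0 sample, d3 replicates 1 or 2, or d28 replicates 1 or 2 (0.0511 to 0.259). The number called was 2 without d0 replicate 1 or 3 and 3 without d3 replicate 1. DESeq2 called RPS27L only, and RPL36 and RPS15A lost their calls with library sizes only.

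**Figure D2:**
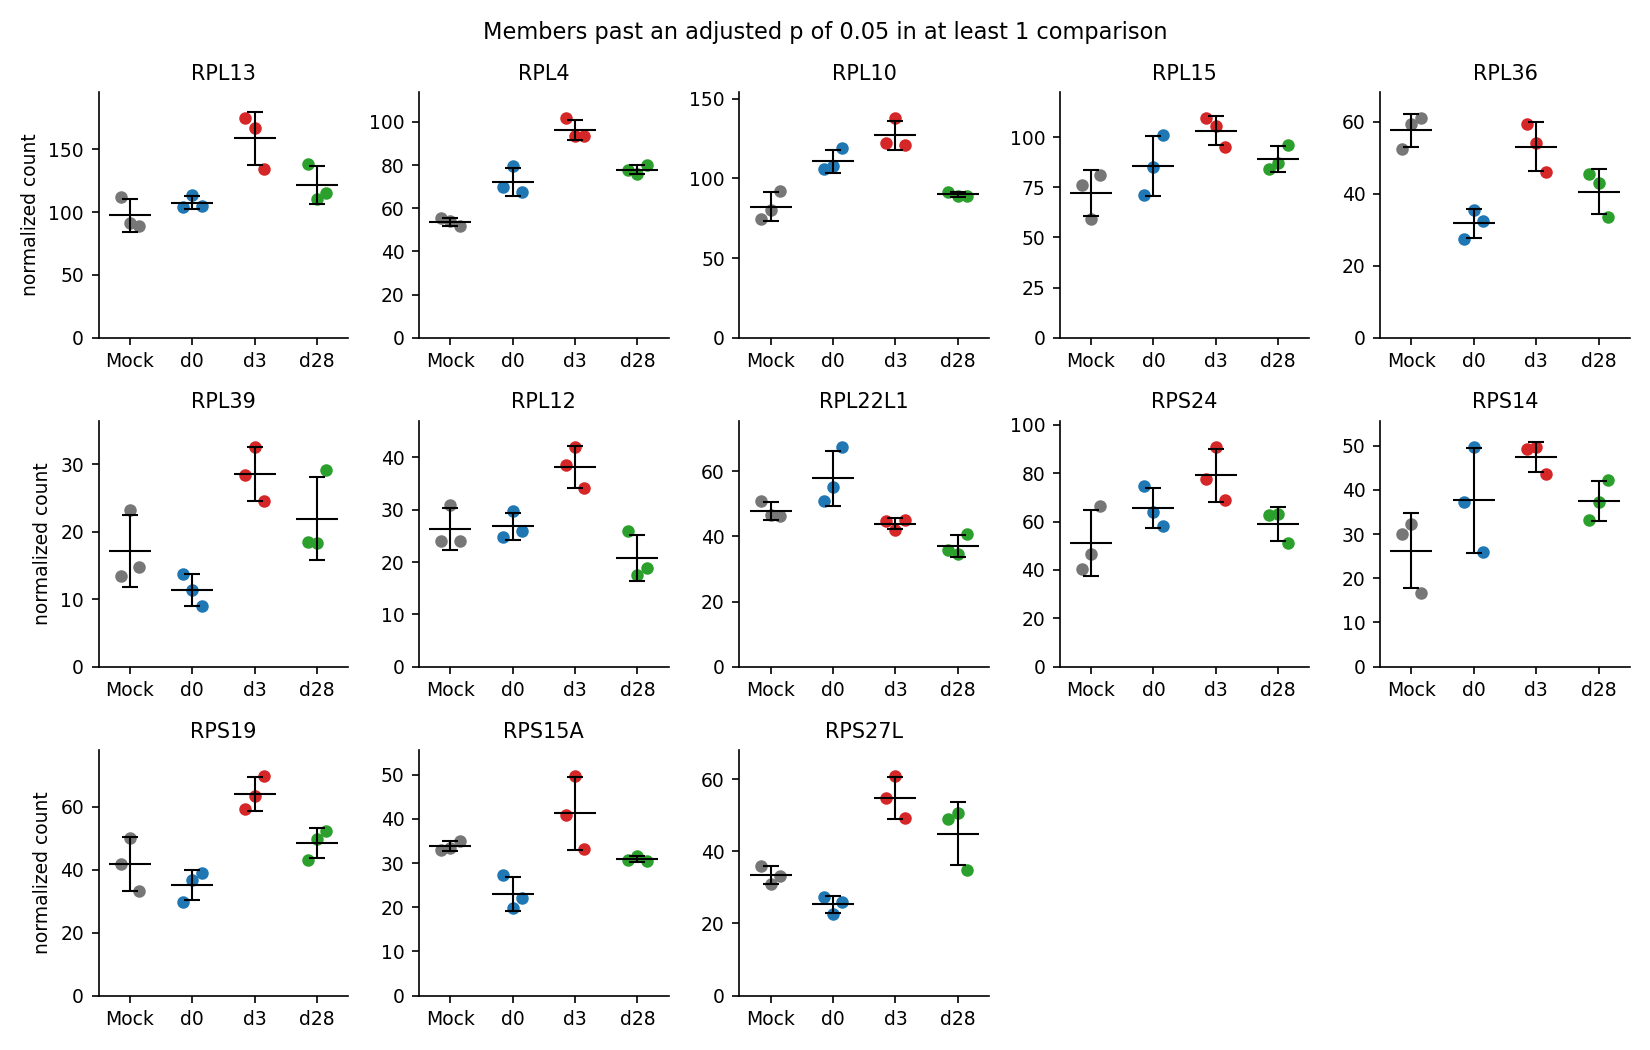
Normalized count of the 13 members called in at least 1 of the 6 comparisons, in each sample (points) with the group mean and SD (bars, n = 3), and an axis from 0 in each panel. Mean levels are highest at d3 in 11 of the 13 genes, the exceptions being RPL36 and RPL22L1. Most of the calls that chose these genes come from comparisons that hold d3, so this count follows in part from the choice.

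From d3 to d28, after AF4-MLL had been switched off, the group stood lower again. The d3 samples are shared with both comparisons above, so a lower d28 is not independent of the higher d3. The median log2 fold change was -0.31 over the members and 0.0063 over all entries, with 72 members below and 11 above 0. In 29 members all d28 samples were below all d3 samples, as in 7.51% of all entries tested. RPL10 and RPL12 were called, 2 of 83 members, beside 0.37% of all entries in either direction, 0.116% called lower and 0.312% called lower where the mean normalized count reached 20. RPL10 fell by 0.49 on the log2 scale (SE 0.12, adjusted p = 0.0247 with edgeR). RPL12, which sits at the base of the stalk, had 24.0, 30.9 and 24.0 in Mock cells, 24.9, 29.8 and 25.9 at d0, 38.5, 41.9 and 34.1 at d3, with 25.9, 17.6 and 18.9 at d28. Its d3 samples were above all others, and it fell by 0.81 from d3 to d28 (SE 0.21, adjusted p = 0.0301 with edgeR).

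Both calls were lost without d3 replicates 1 or 2 or d28 replicates 2 or 3, and that of RPL10 also without d28 replicate 1 (adjusted p between 0.0656 and 0.343 with edgeR). No member was called with DESeq2 or RLE factors, although the median stayed at -0.28 in both. With library sizes only, all 83 were called lower, beside 59.1% of all entries in either direction. The members with the smallest p among those higher at d28 were RPL7 and RPL31, both of the large subunit, with log2 fold changes of 0.18 and 0.21 that did not pass the test.

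At d28 the group lay near Mock cells and d0 by TMM-normalized counts. Against Mock cells no member was called, beside 1.45% of all entries. An unadjusted p below 0.05 was reached by 14 of 83 members, beside 3441 of all 27579 entries tested. Where the mean normalized count reached 20, it was reached by 10 of 60 members and 1598 of 8330 entries. DESeq2 called 0 members as well. With library sizes only, 78 of 83 members were called, all lower, beside 64.6% of all entries, and the medians were -1.35 over the members and -1.32 over all entries. The median log2 fold change was 0.020 over the members and 0.032 over all entries, with 45 members above and 38 below 0. By subunit it was 0.13 in the small and -0.018 in the large subunit. The TMM-normalized sum of the small subunit was 1.08-fold that of Mock cells without overlap of the samples. That of the large subunit was 1.01-fold with overlap, and neither sum was tested. RPS7 (44.5 ± 6.66 against 28.1 ± 6.75, SD, n = 3) and RPL4 (77.9 ± 2.09 against 53.7 ± 1.88) had the smallest p among higher members, with adjusted p = 0.103 for both (edgeR). RPS16 was at 6.86, 7.73 and 2.91 normalized counts at d28 and at 13.5, 14.2 and 18.5 in Mock cells. The groups did not overlap, but few counts stood behind them, and the log2 fold change of -1.21 (SE 0.40) did not pass the test (adjusted p = 0.106 with edgeR). RPS27 was at 16.4, 7.03 and 4.37 at d28 and at 19.5, 21.9 and 22.1 in Mock cells. Its log2 fold change of -0.96 (SE 0.33) had an adjusted p of 0.124 (edgeR), and it was -1.75 with an adjusted p of 0.0106 (edgeR) without d28 replicate 1.

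Against d0, 2 of 83 members were called at d28, both of them paralogues, beside 1.35% of all entries. RPS27L was higher and RPL22L1 lower. DESeq2 called neither. With library sizes only, 59 members were called, all lower, beside 45.7% of all entries, and RPS27L turned to -0.053. The median log2 fold change was 0.055 over the members and 0.036 over all entries. RPL39 (log2 fold change 0.83, SE 0.32, adjusted p = 0.200 with edgeR) and RPL41 (-0.58, SE 0.21, adjusted p = 0.147 with edgeR) came next by p in each direction. RPL41, the shortest of the ribosomal proteins, had 31.1, 30.9 and 24.8 at d28, below all samples of the 3 other groups, which lay between 37.0 and 51.1.

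**Figure D3:**
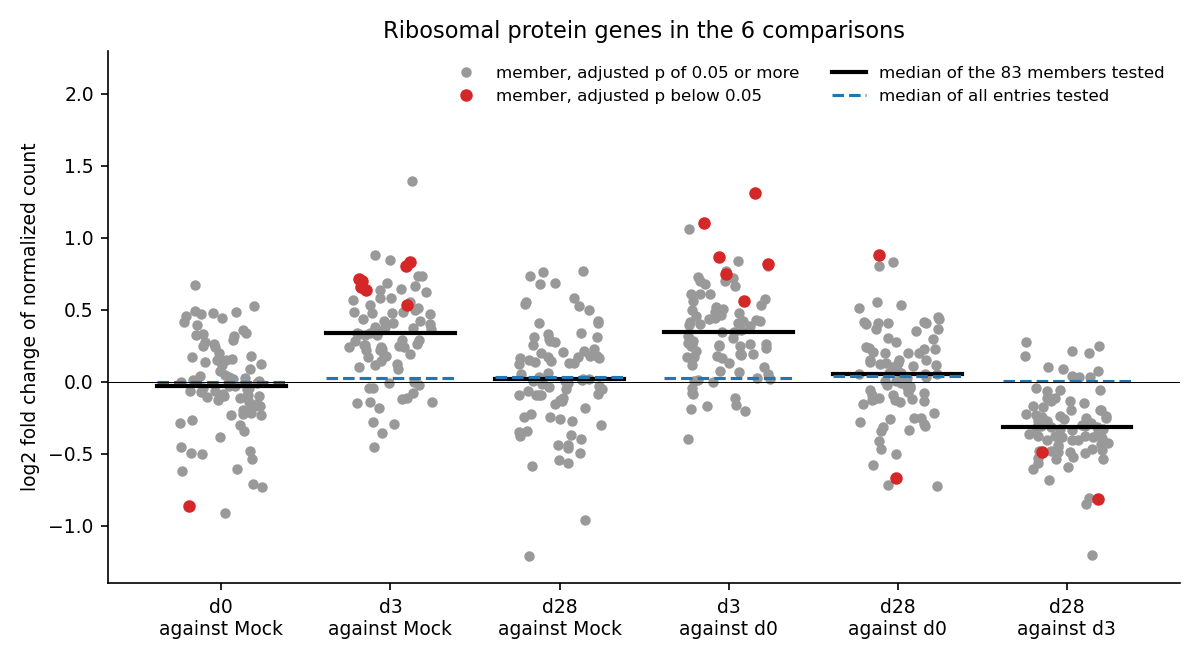
Log2 fold change of each of the 83 tested members (points) in the 6 comparisons, with the median of the members (solid line) and of all 27579 entries tested (dashed line). The member median is near that of all entries except in the 3 comparisons that hold d3, at 0.34, 0.35 and -0.31. With library sizes as the only scaling the first of these is -0.031, beside -0.34 over all entries.

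The 7 paralogues did not move as a block, and RPS27L stood apart among them. RPS27L, which differs from RPS27 in few residues and is known as a target of p53, had 35.9, 30.9 and 33.2 normalized counts in Mock cells, 27.4, 22.7 and 25.9 at d0, 54.7, 60.8 and 49.1 at d3, with 49.1, 50.6 and 34.9 at d28. The d0 samples were below and the d3 samples above all Mock samples, and the d28 samples were above all d0 samples. Its log2 fold change was 0.88 from d0 to d28 (SE 0.22, adjusted p = 0.00973 with edgeR). This call was lost with DESeq2 and without d0 replicates 2 or 3 or d28 replicates 1 or 2 (0.0524 to 0.0894), and with library sizes only the value turned to -0.053. RPS27 itself had means of 21.2, 18.1, 17.5 and 9.25 in Mock cells, d0, d3 and d28, and no comparison called it.

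RPL22L1, which shares its RNA-binding fold with RPL22, had 50.9, 46.4 and 46.1 in Mock cells, 51.01, 55.3 and 67.3 at d0, 44.7, 41.9 and 45.2 at d3, with 35.9, 34.5 and 40.8 at d28. It fell by 0.67 on the log2 scale from d0 to d28 (SE 0.19, adjusted p = 0.0340 with edgeR), and it was also the lower member with the smallest p from d0 to d3 (-0.40, not called), followed by RPL41 (-0.20, not called). The call was lost with DESeq2, with no filter, with the replicate block and without any 1 d0 sample or d28 replicates 1 or 2 (0.0581 to 0.307). RPL22 had means of 19.4, 23.7, 23.8 and 21.2 in Mock cells, d0, d3 and d28. RPL26L1 had 18.9 ± 2.93, 25.8 ± 8.06, 31.1 ± 10.2 and 32.1 ± 1.24 (SD, n = 3), whereas RPL26 had 8.92, 11.1, 11.9 and 8.92. RPL7L1, a nucleolar relative of RPL7 that takes part in making the small-subunit RNA, had means of 38.9 in Mock cells and 55.2 at d3 (log2 fold change 0.47, SE 0.20, adjusted p = 0.299 with edgeR), while RPL7 had 65.0 and 58.0. RPL3 had 106, 94.3, 126 and 91.3 and was the member with the smallest p below those called from d3 to d28 (log2 fold change -0.44, adjusted p = 0.0762 with edgeR). Its muscle form RPL3L stayed between 9.25 and 10.8, and RPL39L between 10.5 and 14.6. None of these differences passed the test.

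Other members of known role gave no call. In the stalk, RPLP0 had 45.4, 37.7, 48.6 and 40.4 and RPLP1 had 40.5, 37.8, 53.2 and 45.5 as means of Mock cells, d0, d3 and d28, and RPLP1 had a log2 fold change of 0.40 (SE 0.20, adjusted p = 0.427 with edgeR) at d3 against Mock cells. RPL11 and RPL5 form a particle with the 5S RNA and, unbound to the ribosome, inhibit MDM2. RPL11 had 8.71, 9.93 and 15.5 at d0 and 27.7, 26.5 and 17.4 at d3, and its log2 fold change of 1.06 (SE 0.32) just missed the threshold (adjusted p = 0.0707 with edgeR). RPL5 had means of 38.2, 32.9, 42.7 and 38.8. RPS27A, which is made as a fusion behind ubiquitin, had 33.6, 38.6, 45.8 and 37.4, with a log2 fold change of 0.42 (SE 0.21, adjusted p = 0.442 with edgeR) at d3 against Mock cells.

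Other genes of translation were set beside the members, by lists also chosen with earlier results known. At d3 against Mock cells, the median log2 fold change of the 6 elongation factors was 0.38, and EEF2, which moves the ribosome along the messenger RNA, was the one called (62.1 against 38.5, log2 fold change 0.70, SE 0.20, adjusted p = 0.0364 with edgeR). EEF2 was also called against d0 (0.86, SE 0.19, adjusted p = 0.00414 with edgeR). The median was 0.25 for 30 genes of ribosome biogenesis (21 above 0, none called). It was 0.18 for 67 entries of initiation factors (43 above 0, none called), taken by symbol and including the pseudogene EIF4EBP2P2. For 78 genes of the mitochondrial ribosome it was 0.17 (54 above 0), and MRPL40 was called lower (-0.70, SE 0.18, adjusted p = 0.0121 with edgeR). Of all entries tested, 52.1% were above 0 and 1.27% were called in either direction. Where the mean normalized count reached 20, 58.4% of entries were above 0, and 65.6% of other protein-coding genes of up to 10 kb. Against d0, 27 of the 30 biogenesis genes were above 0 with a median of 0.21, beside 51.7% of all entries tested. Where the mean normalized count reached 20, it was 57.5% of entries, and 68.9% of other protein-coding genes of up to 10 kb. From d3 to d28 the medians were -0.24 for biogenesis, -0.13 for elongation factors, -0.077 for initiation factors and -0.068 for the mitochondrial ribosome, beside -0.31 for the members.

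**Figure D4:**
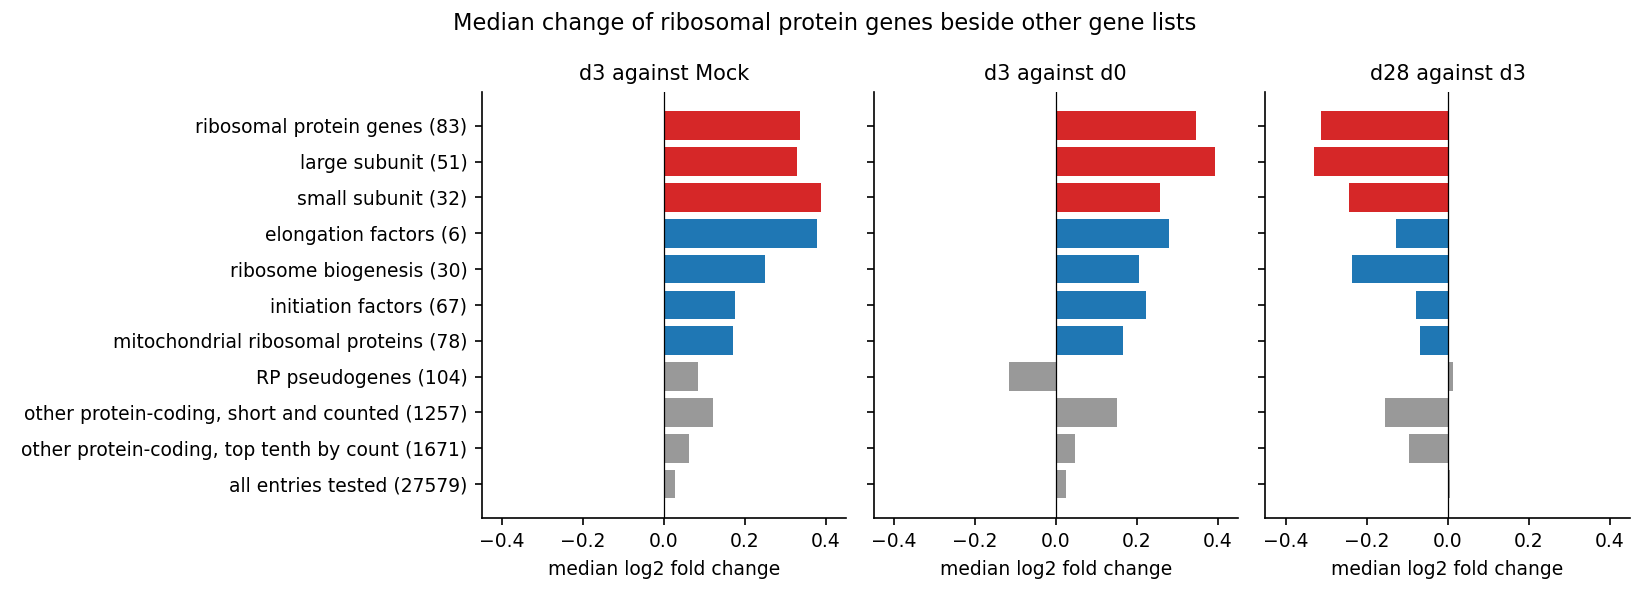
Median log2 fold change (horizontal axis) of the tested ribosomal protein genes and of other lists, with the number of tested entries in brackets, in the 3 comparisons that share the d3 samples. Short and counted means a span of up to 10 kb and a mean normalized count that reached 20. The initiation factors were taken by symbol and include the pseudogene EIF4EBP2P2. The bars of the members are longer than those of the other protein-coding genes in each panel, and the elongation factors reach 0.38 in the left panel.

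Gene length, counting depth and base composition moved with these comparisons, with smaller medians than those of the members. Among other protein-coding genes with a span of up to 10 kb and a mean normalized count that reached 20 (1257 genes), the median log2 fold change was 0.12 at d3 against Mock cells and 65.6% were above 0, while 2.55% were called higher. The same class had medians of 0.15 against d0 and -0.15 from d3 to d28. By span alone, the medians at d3 against d0 went from 0.088 in genes of up to 5 kb to -0.074 in genes over 100 kb. Among the 1671 most counted protein-coding genes the median at d3 against Mock cells was 0.061. The promoters of the members held a median of 59.3% G and C, against 64.0% of the tested protein-coding genes, and over 5 classes of G and C content the medians at d3 against Mock cells lay between -0.020 and 0.073. The part of these features in the height of the members at d3 was not tested.

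Pseudogenes could have taken reads of their parent genes, or given them reads. Pseudogene entries named after them were found for 77 members. There were 1092 ribosomal protein pseudogene entries, with 8975 counts in all, against 36423 counts on the 84 members. The summed normalized count of these pseudogenes was 729 ± 140 (SD, n = 3) in Mock cells, 711 ± 19.5 at d0, 728 ± 27.6 at d3 and 781 ± 60.03 at d28. The high Mock spread came from replicate 1, at 891 against 637 and 661. At d3 the pseudogene sum was 0.999 of that of Mock cells, where the sum of the members was 1.26-fold. This ratio rests on Mock replicate 1, since the d3 samples, at 731, 755 and 700, lay above Mock replicates 2 and 3. Of the 104 pseudogene entries tested, none was called at d3 and the median log2 fold change was 0.084 against Mock cells and -0.12 against d0.

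The members were also divided by features of the genes. Small nucleolar RNA genes lie inside 29 members, 60 of them by RefSeq, and 17 of these were listed with at most 21 counts over the 12 samples. At d3 against Mock cells the median log2 fold change was 0.33 in the 29 members with and 0.34 in the 54 without such a gene, and 0.35 in the 26 tested members overlapped by another gene and 0.34 in the other 57. Reads in an overlap cannot be given to a single gene. RPL17 and RPS10, which share their span with a read-through gene, were among the members with few counts. RPL36A also shares its span with such a gene and had 446 counts over the 12 samples, above the member median of 353.5. Members with a pyrimidine start had a median of 0.34 (47 genes) and those with a window but without such a start of 0.53 (19 genes). With and without the ETS core the medians were 0.37 and 0.36, with and without TCTCGCG 0.44 and 0.34, and with and without TATAAA 0.20 (6 genes) and 0.39. These medians are descriptions, and no difference between them was tested.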

How the data were processed

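ATAC-Seq was carried out on 12 samples of HEK293T cells, 3 biological replicates in each of the groups Mock, d0, d3 and d28. The authors deposited raw read counts per gene for every sample. The submitters' processing notes name bcl2fastq, Bowtie2, HTSeq and GRCh38. The interval counted per gene, any shift of reads for the transposase, the use of strand and the treatment of duplicates are not given in the sources used here. The protocol in the labels also speaks of purified RNA, which was not resolved. Labels gave the groups.

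The filter kept entries whose mean TMM-normalized count exceeded 2 in any group (27579 of 52889), TMM factors were computed again, and edgeR 4.0.16 (R 4.3.3) fitted all 12 samples with the quasi-likelihood test, with Benjamini-Hochberg adjustment over all entries tested. SE is the size of the log2 fold change over the square root of F. The 3 counts that a 0 allows make up 8.47e-05% to 8.49e-04% of the total, and intervals cover counting error only, since reads without molecular identifiers are not independent molecules. Alternatives were DESeq2 1.42.0, other scaling factors and filters, a replicate block, fits of 2 groups, removal of mitochondrial sequences and leaving out each sample. The scripts were tested on simulated counts. Promoters came from RefSeq (GRCh38.p14), matched by symbol. Members and lists were chosen with earlier results of these data known. Named were the members called, the 2 of smallest p in each direction of each comparison, the 3 highest of each subunit and the 3 lowest per kilobase, those of listed role, the paralogues with their parents, and any below the filter. RPL41 beyond its place in this rule, RPL17, RPL27A and RPS10 as extremes, and RPL36A for its read-through gene were added after their values were seen. Some genes are not reported here.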

Additional observations from a re-analysis of the deposited data

How the results depend on the processing

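The direction of all 18 called results was kept with each sample left out, and 3 of them kept their call throughout. DESeq2 kept 5 of the 18 calls, and 10 were lost or turned with library sizes only, 8 were lost with RLE factors, 6 with filterByExpr, 5 with only both groups fitted, 4 with no filter, 2 without mitochondrial sequences and 1 with factors computed before the filter, an alternative chosen after seeing the data. The difference between the median of the members and that of all entries lay, over 21 settings, between 0.25 and 0.37 at d3 against Mock, 0.30 and 0.36 at d3 against d0, and -0.34 and -0.26 at d28 against d3. The cause of the changes given here was not tested, and counts of about 6 to 20 in the shallow Mock samples limit the weaker genes.

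With library sizes only, the number of members called was 5 at d0 against Mock, 0 at d3 against Mock, 78 at d28 against Mock, 59 at d28 against d0 and 83 at d28 against d3, and the medians were -0.49, -0.031, -1.35, -0.87 and -1.32, with 0.43 at d3 against d0. All entries then had medians of -0.45, -0.34, -1.32, -0.88 and -0.99, with 0.10 at d3 against d0. Under this scaling RPL10 (-0.015) and RPL4 (-0.037) at d0 against Mock, RPS7 (-0.69) and RPL4 (-0.84) at d28 against Mock, RPS27L (-0.053) and RPL39 (-0.065) at d28 against d0, and RPL7 (-0.81) and RPL31 (-0.76) at d28 against d3 changed sign.

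At d3 against Mock, 3 members were called with RLE factors, DESeq2 or only both groups, and 4 with filterByExpr, and the median was 0.27 with filterByExpr and 0.41 with no filter or factors before the filter. At d3 against d0, DESeq2 called 1, and the median was 0.41 with factors before the filter. At d28 against d3, RLE factors, DESeq2, no filter and filterByExpr gave 0 calls, removal of mitochondrial sequences gave 1, and filterByExpr gave a median of -0.26. At d28 against d0, DESeq2 gave 0 and no filter or factors before the filter gave 1. At d28 against Mock, factors before the filter gave 1, and the median was 0.089 with no filter or with those factors. No filter gave 0 at d0 against Mock. The rule of unadjusted p below 0.05 with a log2 fold change beyond 1 gave 0 at d0 against Mock, 1 at d3 against Mock, 1 at d28 against Mock, 3 at d3 against d0, 0 at d28 against d0 and 1 at d28 against d3. Of all entries tested, the same rule took 4.49%, 4.38%, 4.92%, 3.85%, 4.67% and 3.22% in the same order.

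With each sample left out in turn, the numbers called ranged from 0 to 1 at d0 against Mock, 2 to 7 at d3 against Mock, 0 to 1 at d28 against Mock, 2 to 7 at d3 against d0, and 0 to 2 at d28 against d0 and at d28 against d3. The medians ranged from -0.047 to 0.029, 0.31 to 0.41, -0.013 to 0.094, 0.31 to 0.39, 0.025 to 0.084 and -0.34 to -0.28 in the same order. Samples that share a number share nothing else in the labels, and the mean correlation of their deviations lay between -0.073 and 0.035 over 8330 entries. With the replicate block, 1 member was called at d28 against d0, and the calls of RPL15, RPS15A and RPL22L1 were lost. The share of all counts was 0.426%, 0.318%, 0.420% and 0.175% in Mock, d0, d3 and d28, and without the 3 members of highest count the share outside mitochondrial genes was 0.514%, 0.497%, 0.609% and 0.448%. Without division by gene length 5 of the 10 highest members stayed.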
